A study of Gossypium hirsutum with 9 samples.

Results

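The signal of the brassinosteroid co-receptor kinase BAK1 was followed in ovules of XinWX and XinFLM by 1 probe of a cotton cDNA array, 28K_164_D07. It is the only probe that the study names brassinosteroid insensitive 1-associated receptor kinase 1, and it is 1 of 29183 different probes. Further probes of the same gene could not be looked for, as no annotation of the probes was at hand. RNA of ovules, with any fiber initials on them, was hybridized to 9 dual-dye arrays, 3 at each of -1, 0 and 1 day post anthesis (DPA), with both lines of the same stage on each array. By scanning electron microscopy, the paper saw protruding epidermal cells only on XinFLM ovules, at 0 and 1 DPA. XinWX forms neither lint nor fuzz, and XinFLM, its near-isogenic line, forms lint but no fuzz, so that the fuzzless seed is common to both. The plants grew in the field, and flowers were tagged at anthesis and pollinated by hand. XinWX carried Cy3 and XinFLM Cy5 on replicates 1 and 3, and on replicate 2 the dyes were swapped. The methods name 2 biological replicates and a dye swap, whereas the design text names 3 biological replicates. P-values based on 3 arrays may thus reflect technical spread to some extent. Across probes, the log2 ratios of the swapped array correlated with those of replicate 1 at r = 0.91, 0.84 and 0.80 at -1, 0 and 1 DPA, and with those of replicate 3 at r = 0.61, 0.47 and 0.55. In such mixed tissue, fewer cells of a type and less RNA per cell cannot be told apart.

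Brassinosteroids are plant steroid hormones that bind the receptor kinase BRI1 at the cell surface. BAK1, a receptor kinase with leucine-rich repeats that is also called SERK3 in Arabidopsis, joins BRI1 as co-receptor, and the kinases phosphorylate each other before the signal passes inward to transcription factors. The same co-receptor serves immune receptors of Arabidopsis. In cultured cotton ovules brassinosteroids are known to promote the outgrowth and elongation of fibers.

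The primers that the study designed for this gene in RT-qPCR are given because they are the sequences at hand that tie the probe to a transcript. They were printed 5′ to 3′ with no part in capitals.
Forward primer: attgactgatgaagatagca
Reverse primer: ctcgtacacaaggtaatga
The forward primer has 20 bases with 7 G or C, and the reverse primer has 19 bases with 8 G or C. A reference table of upland cotton genes lists 6 genes under names of the SERK family, and nothing used here pairs the probe with one of them. The part of related gene copies in its signal was not tested. The study selected this probe for RT-qPCR from the genes that differed on these arrays, so its call at 0 DPA is not independent evidence of a direction.

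Among all arrays, 20544 to 23884 probes were kept, and median net intensities per channel (spot minus local background) lay between 694 and 1664 scanner units. Both extremes were on replicate 3 of 1 DPA, at 1664 units in XinWX and 694 units in XinFLM, and the BAK1 ratios, steps and mean levels that use it are also given without it. The study names 2 probes of genes known from young fibers, 28K_179_F11 for a lipid transfer protein and 28K_233_A03 for a benzoquinone reductase. The mean log2 ratios of XinWX over XinFLM of 28K_179_F11 were -0.54 ± 0.02, -1.43 ± 0.31 and -2.73 ± 0.13 at -1, 0 and 1 DPA (SD, n = 3 arrays). Those of 28K_233_A03 were 0.09 ± 0.23, -0.90 ± 0.18 and -1.91 ± 0.31. Both probes were named by the study on these same arrays, so that their ratios are not an independent check of the labels. Markers of other cell types could not be assigned to probes.

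The BAK1 probe was dimmer in XinWX than in XinFLM on 9 of 9 arrays, and the gap was widest at 0 DPA. Of 20873 probes tested at all 3 stages, 22.6% had a mean normalized ratio below 0 at each stage, so that this sign of the means is common. The share of all probes that were dimmer in XinWX on 9 of 9 arrays was not counted. At -1 DPA its net intensities on replicates 1, 2 and 3 were 1426, 2517.5 and 1054.5 units in XinWX, against 2447, 3719.5 and 1951.5 units in XinFLM. At 0 DPA they were 975, 897 and 810 units in XinWX, against 3060.5, 2710.5 and 4148 units in XinFLM. At 1 DPA they were 640.5, 529 and 1342 units in XinWX, against 781.5, 613 and 1526 units in XinFLM. In net intensity the lines did not overlap at 0 DPA, where the brightest XinWX value was 975 units and the dimmest XinFLM value was 2710.5 units. The share of all probes that separate in this way was not counted. At -1 and 1 DPA the net intensities of the lines overlapped. In the normalized log2 levels given below, the lines overlapped at 1 DPA but not at -1 DPA (XinWX at most 10.92, XinFLM at least 10.94). These values of -1 DPA lay close together on different arrays, and the share of all probes that separate so was not counted either. The lowest of the 18 net values was 529 units, so that the probe passed the limit of 400 units for faint spots in both channels on every array. Its spot carried the lowest scanner flag on 1 array, replicate 1 of 1 DPA.

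**Figure D1:**
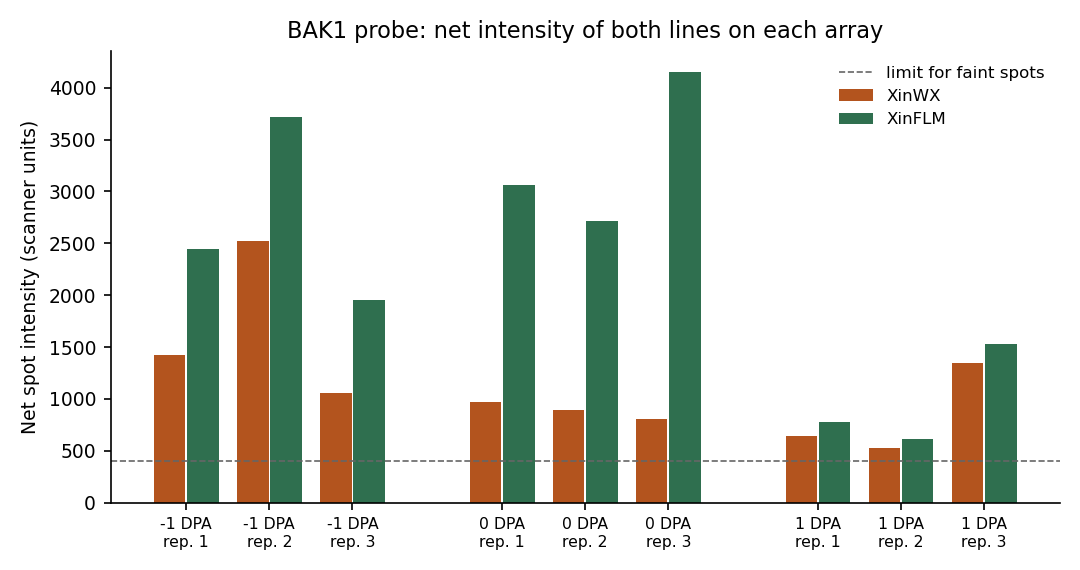
Net intensity (spot minus local background, scanner units) of the BAK1 probe on each of the 9 arrays, with XinWX left and XinFLM right in each pair of bars. At 0 DPA the 3 XinWX bars lie between 810 and 975 units, and the 3 XinFLM bars lie between 2710.5 and 4148 units.

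After normalization within each array, the ratio of the lines gave the same order of stages. The log2 ratios of XinWX over XinFLM were -0.80, -0.69 and -0.81 on replicates 1, 2 and 3 at -1 DPA, -1.53, -1.49 and -2.27 at 0 DPA, and -0.28, -0.36 and -1.31 at 1 DPA. They were thus below 0 on every array, closely grouped at -1 DPA and spread at 1 DPA. The dye-swapped replicate 2 lay near replicate 1 at each stage, and replicate 3 had the lowest value at each stage.

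At 0 DPA the BAK1 probe was 3.39-fold lower in XinWX (log2 -1.76 ± 0.44, SD, n = 3 arrays, standard error 0.19, 95% interval -2.17 to -1.35, adjusted p = 5.47e-05 in limma). Differential expression was called where the false discovery rate (FDR) was under 0.05 and the difference 2-fold or more. Both limits were passed here, which 1.03% of the 22654 probes tested did in the same direction. A lower ratio was found for 40 probes, or 0.177% of those tested, which put the BAK1 probe in place 41 of the 234 probes called lower in XinWX. Both limits were passed in each of 24 alternative settings, with log2 ratios between -2.19 and -1.51 and an adjusted p of at most 0.00614. Both fiber probes were lower in XinWX at this stage too, 28K_179_F11 past both limits (adjusted p = 1.19e-05) and 28K_233_A03 past the FDR alone (adjusted p = 0.00112), and their part in the BAK1 ratio was not tested. When the swapped array and replicate 1 were averaged into 1 sample, the log2 ratio was -1.89 (adjusted p = 0.000341).

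At -1 DPA the probe was 1.70-fold lower in XinWX (log2 -0.76 ± 0.07, 95% interval -1.18 to -0.35, adjusted p = 0.0104 in limma). This passed the FDR, as did 11.9% of the 23170 probes tested, but not the minimum fold change, where both limits together were passed by 1.24%. At 1 DPA it was 1.57-fold lower in XinWX (log2 -0.65 ± 0.57, 95% interval -1.06 to -0.24, adjusted p = 0.0244), again past the FDR alone. The background was 12.2% of 22077 probes for the FDR and 2.19% for both limits. Lower ratios than that of the BAK1 probe were found for 3.19% of the probes at -1 DPA and 5.28% at 1 DPA, so that its place among all probes was less extreme than at 0 DPA. The FDR was passed in 23 of 24 alternative settings at -1 DPA and in 21 of 24 at 1 DPA.

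The value at 1 DPA rested on replicate 3. Before loess normalization the 3 arrays of this stage had log2 ratios of -0.11, -0.37 and -0.17, and after it -0.28, -0.36 and -1.31. Loess moved the ratio of the BAK1 probe by -1.13 on replicate 3 of 1 DPA, and by -0.16 to 0.05 on the other 8 arrays. On that replicate 3 the median net intensity of all probes was 1664 units in XinWX and 694 units in XinFLM. With median centring of each array in place of loess, the mean log2 ratio at 1 DPA was -0.59 (adjusted p = 0.0365 in limma). Without replicate 3 of 1 DPA the log2 ratio at this stage was -0.32, and it no longer passed the FDR (adjusted p = 0.212 in limma). With replicate 1 of this stage removed for its scanner flag, the log2 ratio was -0.82 (adjusted p = 0.0164).

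**Figure D2:**
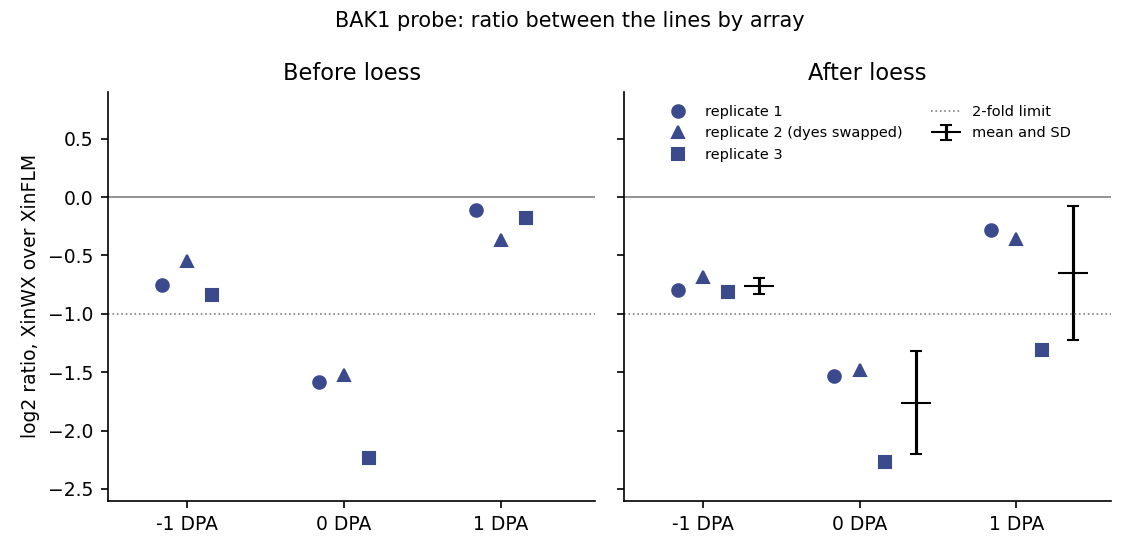
Log2 ratio of XinWX over XinFLM of the BAK1 probe on each array, before (left) and after (right) loess normalization, with symbols for the replicates, black marks for the mean and SD of each stage, and a dotted line at a 2-fold difference. All values lie below 0, the mean at 0 DPA is -1.76, and replicate 3 of 1 DPA moves from -0.17 to -1.31.

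**Figure D3:**
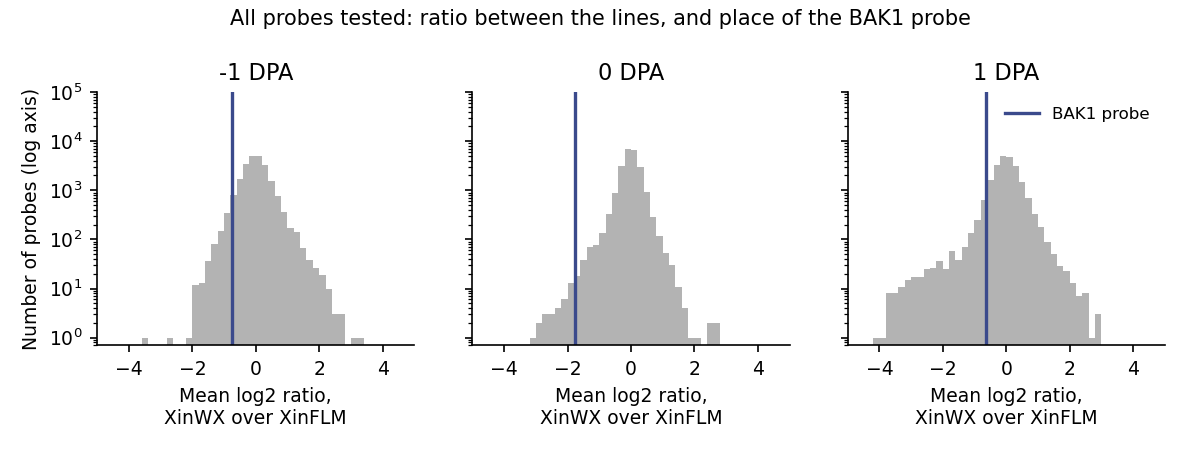
Number of probes (log axis) by mean log2 ratio of XinWX over XinFLM at each stage, in bins of 0.2, with a line at the BAK1 probe. At 0 DPA the line at -1.76 stands in the outer left tail, beyond all but 40 of 22654 probes.

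The ratio itself changed between the stages. It fell by 1.00 on the log2 scale between -1 and 0 DPA (standard error 0.27, 95% interval -1.58 to -0.42, adjusted p = 0.0420 in limma), and 4.09% of 22227 probes passed the FDR in this direction. It rose by 1.11 between 0 and 1 DPA (standard error 0.27, 95% interval 0.53 to 1.69, adjusted p = 0.0220), and 4.71% of 21071 probes passed in this direction. Between -1 and 1 DPA the change was 0.12 (95% interval -0.47 to 0.70, adjusted p = 0.835), where 10.7% of 21229 probes passed in either direction. It was -0.07 to 0.45 when single arrays were left out, with the highest value, 0.45, without replicate 3 of 1 DPA (adjusted p = 0.240), the lowest without replicate 1 of 1 DPA, and -0.03 without replicate 2 of 1 DPA. The first change did not pass when any 1 of the 6 arrays of these stages was left out (log2 -1.14 to -0.74, adjusted p = 0.0642 to 0.127). The second did not pass without replicate 3 of 0 DPA (0.86, adjusted p = 0.0782), replicate 1 of 1 DPA (0.93, adjusted p = 0.0944) or replicate 2 of 1 DPA (0.97, adjusted p = 0.0813), and was 1.44 without replicate 3 of 1 DPA (adjusted p = 0.00159). When the swapped array was averaged with replicate 1, the adjusted p was 0.136 for the first change and 0.153 for the second.

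Within each line, no step between stages passed the test. The mean normalized log2 level at -1, 0 and 1 DPA was 10.49, 9.86 and 9.72 in XinWX, against 11.25, 11.62 and 10.37 in XinFLM. In XinWX the log2 levels on replicates 1, 2 and 3 were 10.14, 10.92 and 10.41 at -1 DPA, 9.85, 9.85 and 9.88 at 0 DPA, and 9.62, 9.58 and 9.98 at 1 DPA. In XinFLM they were 10.94, 11.60 and 11.22 at -1 DPA, 11.39, 11.34 and 12.15 at 0 DPA, and 9.90, 9.94 and 11.29 at 1 DPA. The 3 XinWX values of 0 DPA lay below all XinWX values of -1 DPA, but this step did not pass. The share of all probes that separate in this way was not counted. In XinFLM the values of -1 and 0 DPA overlapped, and 2 of the 3 values of 1 DPA lay below all values of the earlier stages.

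In XinWX the log2 change from -1 to 0 DPA was -0.63 (95% interval -1.46 to 0.20, adjusted p = 0.687 in limma's separate-channel analysis). From 0 to 1 DPA it was -0.14 (95% interval -0.97 to 0.69, adjusted p = 0.9), and from -1 to 1 DPA it was -0.76 (95% interval -1.59 to 0.06, adjusted p = 0.310). Over these steps 0.436%, 0.266% and 2.2% of all probes tested were called in XinWX. In XinFLM the change from -1 to 0 DPA was 0.37 (95% interval -0.46 to 1.20, adjusted p = 0.885), and 0.724% of probes were called. From 0 to 1 DPA it was -1.25 (95% interval -2.08 to -0.42, adjusted p = 0.0849), with 2.91% of probes called, and from -1 to 1 DPA it was -0.88 (95% interval -1.71 to -0.05, adjusted p = 0.157), with 10.3% called. These intervals are not adjusted for the number of probes, and each change has a standard error of 0.40.

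Replicate 3 of 1 DPA decided the calls in XinFLM. Its XinFLM level of 11.29 stood above the 9.90 and 9.94 of the other arrays of this stage. Without it the log2 change in XinFLM was -1.71 from 0 to 1 DPA (adjusted p = 0.00283) and -1.34 from -1 to 1 DPA (adjusted p = 0.0067), and both passed the limits for differential expression. In XinWX the steps to 1 DPA without it were -0.27 from 0 DPA (adjusted p = 0.626) and -0.89 from -1 DPA (adjusted p = 0.0735). No step in XinWX passed when any single array was left out. Other arrays also moved values that were not called by over 1.5 times. In XinFLM the step from -1 to 0 DPA was 0.11 without replicate 3 of 0 DPA and 0.21 without replicate 1 of -1 DPA. In XinWX that step was -0.41 without replicate 2 of -1 DPA, and the step from 0 to 1 DPA was -0.06 without replicate 2 of 1 DPA.

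**Figure D4:**
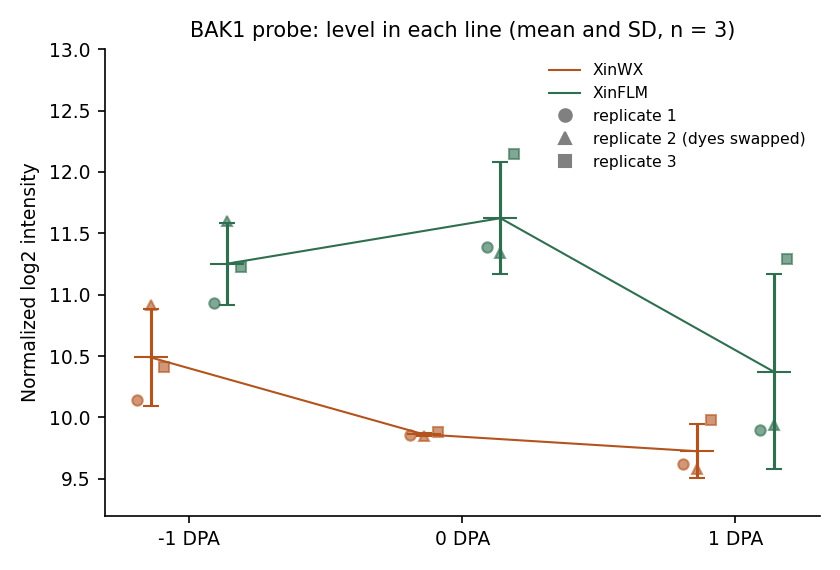
Normalized log2 intensity of the BAK1 probe by stage, with XinWX left and XinFLM right at each stage, symbols for the replicates, bars for the mean and SD of 3 arrays, and lines that join the means. XinFLM averages 11.62 at 0 DPA, where XinWX averages 9.86, and replicate 3 of 1 DPA stands apart in XinFLM at 11.29.

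Ordered by mean log2 level, XinFLM at 0 DPA came first (11.62 ± 0.45, SD, n = 3 arrays), followed by XinFLM at -1 DPA (11.25 ± 0.33), XinWX at -1 DPA (10.49 ± 0.39), XinFLM at 1 DPA (10.37 ± 0.79), XinWX at 0 DPA (9.86 ± 0.01) and XinWX at 1 DPA (9.72 ± 0.22). Of neighbours in this order, only XinWX and XinFLM at -1 DPA differed past the FDR, by the ratio within arrays. XinFLM at 0 and -1 DPA, and XinWX at 1 and 0 DPA, did not differ past the FDR. The gaps between XinWX at -1 DPA and XinFLM at 1 DPA (0.12) and between XinFLM at 1 DPA and XinWX at 0 DPA (0.51) were smaller than the SD of XinFLM at 1 DPA, and these pairs of line and stage were not tested. Without replicate 3 of 1 DPA, the mean levels at this stage were 9.60 in XinWX and 9.92 in XinFLM.

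Sterol 14-demethylase, which acts in the synthesis of the sterols from which brassinosteroids are made, and 3-beta-hydroxy-delta5-steroid dehydrogenase, of a family that oxidizes sterols and steroids, are the only other named probes near this pathway. At each stage 0 of 2 passed both limits, where the background over all probes was 1.24%, 1.03% and 2.19% lower in XinWX and 2.08%, 0.446% and 1.78% higher in XinWX at -1, 0 and 1 DPA, so that the count says little. Sterol 14-demethylase 28K_096_A10 had log2 ratios of XinWX over XinFLM of 1.07, 0.70 and 1.09 at -1 DPA, opposite in sign to the BAK1 probe. Its mean ratio was 0.96 ± 0.22 at -1 DPA (adjusted p = 0.000174 in limma), -0.11 ± 0.17 at 0 DPA and 0.22 ± 0.23 at 1 DPA. The dehydrogenase probe 28K_001_D11 had mean ratios of 0.05 ± 0.23, 0.15 ± 0.31 and 0.16 ± 0.46 at -1, 0 and 1 DPA. Its adjusted p-values were at least 0.534 in limma. The paper chose this probe for RT-qPCR among genes that did not differ between the lines on these arrays. Its lack of a call is therefore not an independent result. Of the 18 probes with a name in the study, the BAK1 probe had the lowest ratio at 0 DPA, where 2 of 18 were called lower in XinWX and 0 higher. At -1 DPA 3 of 18 were called lower and 5 higher, and at 1 DPA 2 were lower and 3 higher, with the BAK1 probe in place 4 and 3 from the lowest. These probes were named by the study on these arrays, some for differing and some for not differing. Counts of them, set against the background shares of all probes, are thus not independent evidence.

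Among 20873 probes tested at all 3 stages, 213 were called lower in XinWX at 0 DPA, and 70 of these were called at neither other stage. The BAK1 probe was 1 of the 70 and had the sixth lowest ratio at 0 DPA among them. Spots printed next to it were compared with it. Of 24 probes within 2 rows or columns, 20 to 22 were kept per array. The medians of their log2 ratios lay between -0.27 and 0.05, and at 0 DPA 0 of them lay below the BAK1 probe on any array. At -1 DPA 1 of 21, 1 of 22 and 3 of 21 lay below it on replicates 1, 2 and 3. At 1 DPA 7 of 20, 6 of 21 and 2 of 21 did, with neighbour medians of -0.18, -0.11 and -0.27, so that there the BAK1 ratio stood less apart from its neighbours.

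The pattern of the BAK1 probe was most like that of probe 28K_153_E04, for which no gene name was at hand. Whether both probes come from the same gene could not be checked. Over the 18 normalized channel values they correlated at r = 0.917, and over the 9 log2 ratios at r = 0.996, the highest value for both measures among 18150 probes kept on all arrays. The points share arrays, stages and lines in pairs, so the coefficients are descriptions. This probe and those named after it were picked for likeness over these same channel values. Their calls in the direction of the BAK1 probe are thus descriptions too. The spots lie in different blocks of the array. The log2 ratios of 28K_153_E04 on replicates 1, 2 and 3 were -0.68, -0.52 and -0.65 at -1 DPA, -1.64, -1.56 and -2.46 at 0 DPA, and -0.07, -0.11 and -1.49 at 1 DPA. Array by array the BAK1 ratio differed from it by -0.25 to 0.20. At 0 DPA 28K_153_E04 was called lower in XinWX (log2 -1.89 ± 0.50, adjusted p = 0.000181 in limma), and at -1 and 1 DPA it passed neither limit (adjusted p = 0.0714 and 0.103). On replicate 3 of 1 DPA its net intensity was 1752 units in XinWX and 2372 units in XinFLM, so that there, as for the BAK1 probe, the ratio was further below 0 after normalization than in the net values.

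**Figure D5:**
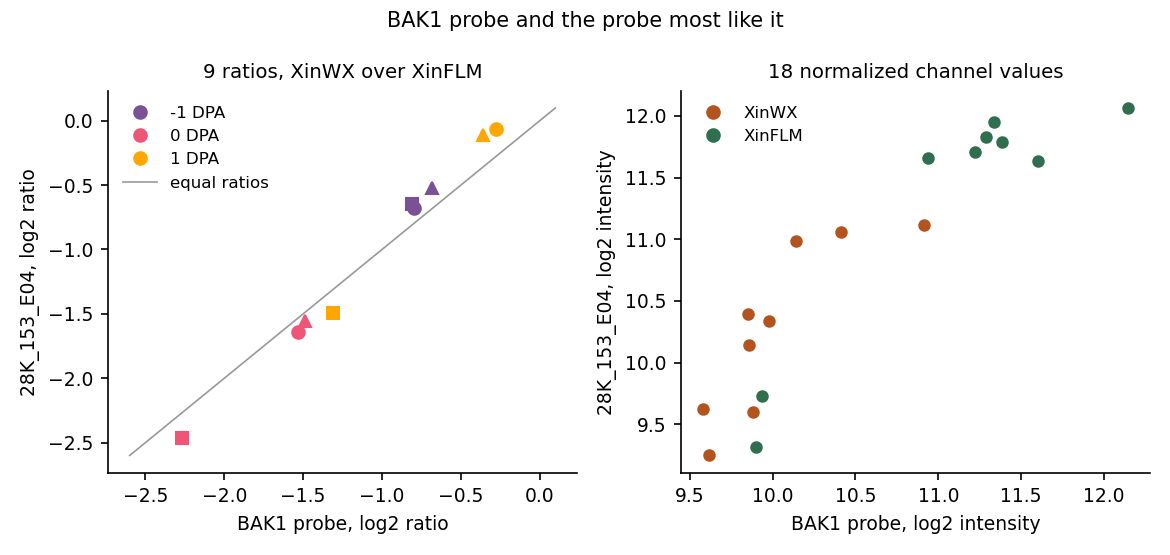
Probe 28K_153_E04 against the BAK1 probe, as 9 log2 ratios of XinWX over XinFLM colored by stage (left, with a line of equal ratios) and as 18 normalized log2 channel values (right, XinWX and XinFLM in separate colors). The ratios of the probes lie within 0.25 of each other on every array.

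The next probes by likeness of level were 28K_094_D06 (r = 0.874), 28K_175_C09 (0.866), 28K_135_D05 (0.866) and 28K_152_C03 (0.849). Their likeness over the 9 ratios ranged widely, from 0.926 for 28K_094_D06 to 0.0785 for 28K_135_D05, with 0.698 for 28K_175_C09 and 0.473 for 28K_152_C03. Probe 28K_094_D06 was, like the BAK1 probe, called lower in XinWX at 0 DPA alone (log2 -1.26 ± 0.23, adjusted p = 6.89e-05 in limma). Probe 28K_175_C09 was called lower in XinWX at -1 DPA (log2 -1.07 ± 0.09, adjusted p = 6.49e-05) and at 0 DPA (log2 -1.14 ± 0.07, adjusted p = 8.61e-05). Probes 28K_135_D05 and 28K_152_C03 were called at no stage. Without a name for these probes, nothing is said of their function.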

How the data were processed

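Per the labels and the methods, the authors scanned each array in Cy5 and Cy3 and deposited spot and background intensity values with no normalization, and a table of log2 ratios of Cy5 over Cy3 that they normalized within arrays. R 2.12.2 and limma 3.4.5 are named in the submitters' processing notes. The deposited scanner flag (a code, of unit other) was used only in an alternative. Here R 4.3.3, limma 3.58.1 and statmod 1.5.0 were used, and spot medians were background-corrected by normexp with an offset of 50. Spots under 400 units in both channels were removed. Ratios were normalized by loess (span 0.3, 4 iterations) and turned to XinWX over XinFLM. The 9 arrays entered 1 fit with a coefficient for each stage, in which a probe was tested if kept on 2 or more of the 3 arrays of that stage. For steps within a line, Aquantile normalization and limma's separate-channel analysis were used (intraspot correlation 0.781). Benjamini-Hochberg adjustment ran over all probes tested. The fits were tested on simulated data. Python 3.11.15 with matplotlib 3.10.9 drew the figures.

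The probe and the probe lists were chosen with earlier results of these data known. Named were the BAK1 probe, the other named probes of sterol and steroid metabolism, 2 fiber probes for the label check, and the 5 probes most alike by Pearson's r over the channel values. Same-numbered arrays of -1 and 0 DPA deviated together from their stage means across probes (r = 0.141, 0.261 and 0.129 in the ratio). In the levels, r on replicates 1, 2 and 3 was 0.093, 0.195 and 0.391 in XinWX and 0.113, 0.144 and 0.360 in XinFLM. This rests on the data and not on the labels. Arrays of other stages hardly deviated together (r = -0.07 to 0.09 in the ratio and -0.12 to 0.09 in the levels). The number of arrays limits the precision. Alternatives covered background correction, filters, normalization, dye, replicate block, averaging of arrays, leaving out each array, the arrays fitted and the authors' ratios. The spot mean in place of the median was added after seeing the data.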

Additional observations from a re-analysis of the deposited data

Results flagged for a closer look

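The ratio of XinWX over XinFLM of the BAK1 probe differed between stages by a test of the difference itself. It changed by log2 -1.00 between -1 and 0 DPA (adjusted p = 0.0420 in limma) and by log2 1.11 between 0 and 1 DPA (adjusted p = 0.0220). On all 3 arrays of 0 DPA the ratio lay below the 6 values of the other stages, and the share of all probes with such an order was not counted. Neither change passed with the swapped array averaged into replicate 1, and no explanation was tested.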

How the results depend on the processing

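The call of the BAK1 probe at 0 DPA held in all 24 alternatives, and its lack of a call at -1 and 1 DPA held in 24 each. The log2 change of ratio from -1 to 0 DPA, -1.00 as reported, no longer passed the FDR with plain background subtraction (-1.05), no filter on faint spots (-1.00), replicate 1 and the swapped array averaged (-1.11) or the authors' log2 ratios (-1.05), and it was -1.14 to -0.74 when single arrays were left out. That from 0 to 1 DPA, 1.11 as reported, did not pass with no filter (1.12), the lowest scanner flag removed (0.94), the same averaging (1.07) or the authors' ratios (1.13), and it was 0.86 to 1.44 without single arrays. In XinFLM the step from 0 to 1 DPA (-1.25) passed with the replicate block (-1.25, adjusted p = 0.0450 in limma's separate-channel analysis). The labels do not say whether the numbers of these stages pair samples. Same-numbered arrays hardly deviated together (r = -0.07 to 0.05 in the ratio and 0.03 to 0.09 in the XinFLM level). The step also passed when the swapped array was averaged with replicate 3 (-1.30). It did not pass with replicate 1 (-1.16, adjusted p = 0.440), the array to which the swapped array was closer at every stage. Without single arrays the XinFLM step from 0 to 1 DPA was -1.71 to -0.98, and that from -1 to 1 DPA was -1.34 to -0.65, with calls only without replicate 3 of 1 DPA. The replicate block changed no other call. With scale normalization between arrays 586 probes passed at 0 DPA, against 335. The causes were not tested. Net intensities of 529 to 4148 units leave the probe above the faint limit, and 3 arrays per stage limit the precision.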
